A study of Mus musculus with 4 samples.

Results

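The genes described are 5 mouse genes of prostaglandin and leukotriene synthesis, Ptgs1, Ptgs2, Pla2g12a, Cbr2 and Ltc4s, followed in an ATAC-seq study of fibroblasts lacking Rela or Kindlin-2. All open-chromatin regions that the deposited tables assign to one of these 5 gene names were taken, which gave 8 regions of 34172 in both tables together. The Rela table held 6 of its 28445 regions at all 5 genes, and the Kindlin-2 table held 2 of its 5727 regions, at Ptgs2 and Pla2g12a. The gene set was put together with the signal differences in these tables already known. The values below therefore describe these genes, and their counts support nothing about the pathway.

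ATAC-seq uses the Tn5 transposase to cut accessible DNA, so the signal of a region follows how open it is. The Rela knockout cells and their Rela wild-type counterparts were 3T3 mouse embryo fibroblasts, an immortal line. The Kindlin-2 knockout cells and their Kindlin-2 floxed counterparts were mouse kidney fibroblasts. The floxed cells carry the allele prepared for deletion and served as the control. All 4 genotypes were used between passages 15 and 20, in medium with 10% bovine calf serum, and 50000 cells entered each library. No stimulus is named in the labels, nor whether a knockout culture was 1 clone. According to the design text each genotype had 2 biological replicates, but the tables hold 1 column of values per genotype, so none of the differences could be tested or checked against replicates. Each library pools many cells, so fewer cells with an open region and less opening per cell cannot be told apart.

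Prostaglandins and leukotrienes are short-lived lipid mediators made from arachidonic acid. Phospholipases A2 free the fatty acid from membranes, and the cyclooxygenases encoded by Ptgs1 and Ptgs2 turn it into the precursor of all prostaglandins, which synthases and reductases convert into the final forms. In a separate branch a lipoxygenase makes the unstable leukotriene A4, and the enzyme encoded by Ltc4s joins it to glutathione. Ptgs1 is regarded as the constitutive gene and Ptgs2 as the inducible one. In fibroblasts Ptgs2 is an immediate early gene that answers serum and inflammatory cytokines, and it is a known target of NF-kB, whose p65 subunit is encoded by Rela.

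RefSeq promoter windows, each running from 250 bases before to 50 bases after the annotated start on build GRCm38.p6, were found for all 5 genes. The windows of Ptgs2, Ptgs1 and Cbr2 overlapped a measured region by 300, 214 and 245 bases in the Rela table and are printed because these are the members whose signal lay at the promoter itself and was lower in the Rela knockout. The windows of Pla2g12a and Ltc4s overlapped no measured region of their gene and are not shown. The Pla2g12a window (129880934 to 129881233) belongs to a start further inside the gene than the one the authors used (129878606), so its lack of overlap says nothing of where the region lies. Each sequence runs 5′ to 3′ on the strand of its gene, and capitals mark the motifs found.
Ptgs2, chr1:150099781-150100080, plus strand: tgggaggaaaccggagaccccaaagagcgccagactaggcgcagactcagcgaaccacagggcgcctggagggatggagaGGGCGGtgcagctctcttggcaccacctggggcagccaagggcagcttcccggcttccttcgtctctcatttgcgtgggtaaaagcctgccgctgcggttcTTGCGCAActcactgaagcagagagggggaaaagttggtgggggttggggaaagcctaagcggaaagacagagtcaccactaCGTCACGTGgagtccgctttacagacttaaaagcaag
Ptgs1, chr2:36230176-36230475, plus strand: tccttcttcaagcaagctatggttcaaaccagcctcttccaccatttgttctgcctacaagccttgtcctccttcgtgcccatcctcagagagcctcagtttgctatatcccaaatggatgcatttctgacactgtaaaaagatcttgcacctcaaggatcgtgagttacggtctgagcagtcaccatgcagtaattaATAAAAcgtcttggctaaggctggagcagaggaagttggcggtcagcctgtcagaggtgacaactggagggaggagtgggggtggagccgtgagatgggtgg
Cbr2, chr11:120731972-120732271, minus strand: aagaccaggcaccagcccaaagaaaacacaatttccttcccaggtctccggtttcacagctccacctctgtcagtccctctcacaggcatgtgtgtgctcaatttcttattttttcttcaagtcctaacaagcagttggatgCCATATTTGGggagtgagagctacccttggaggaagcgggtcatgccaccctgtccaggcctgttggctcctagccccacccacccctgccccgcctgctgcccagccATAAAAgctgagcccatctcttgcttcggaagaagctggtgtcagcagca

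The search covered 10 motifs on both strands, with positions counted from 1 at the annotated start base and negative before it. The Ptgs2 window held a GC box (GGGCGG) at -170 to -165, a C/EBP motif (TTNNGCAA) at -69 to -62, and the CRE core TGACG on the antisense strand at 14 to 18, which shares 2 bases with the E-box CACGTG at 17 to 22. Of all 32851 promoter windows in the table, 35.7% held the GC box, 10.8% the C/EBP motif, 20.8% the CRE core and 7.15% the E-box. The Ptgs1 window held ATAAAA at -52 to -47, a string related to the TATA box that 18.5% of windows hold. The Cbr2 window held ATAAAA at 1 to 6 and a CArG box, the motif of serum response factor, at -108 to -99, which 1.63% of windows hold. The kB motif of NF-kB (in 8.46% of windows), the AP-1 motif TGANTCA (7.81%), TATAAA (13.6%) and the TEAD motif GGAATG (14.7%) were not in these 3 windows, which says nothing about sites elsewhere. The windows differed in composition, with 59.3% G and C and 16 CG pairs at Ptgs2, against 50.7% and 6 at Ptgs1 and 54.7% and 4 at Cbr2. The median window had 52.7% and 7 CG pairs.

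Signals are the authors' background-corrected, normalized values, which have no unit and compare within a table only. The ratio of a region is the knockout over its control. Intervals in brackets are 95% exact intervals of that ratio for counting error alone, and they leave out the difference between cultures. A log2 ratio is log2((knockout + 1)/(control + 1)), and a region is called at least 2-fold higher or lower when that value is 1 or more in size. The Rela columns summed to 1458609 in the knockout and 1386832 in the wild type, with median region signals of 35 and 34. The Kindlin-2 columns summed to 827408 in the knockout and 1655317 in floxed cells, of which 2 mitochondrial regions held 86.2% and 91.8%, and the median signal was 16 in both. The 1 region of the Rela gene, 52 bp from its start, held 27 in the knockout and 21 in the wild type, and the deposited values do not show whether it lies in the deleted part. No region was assigned to Fermt2, the Kindlin-2 gene. Of 14 fibroblast marker genes, 10 had 11 regions in the Rela table, 2 of them at least 2-fold higher and 3 lower in the knockout. Vim, which encodes vimentin, held 108 in the knockout and 110 in the wild type. For the Kindlin-2 cells 1 of the 14 did, the fibronectin gene Fn1 (12 in the knockout and 26 in floxed cells), so the cell type is hardly checked there. The other marker with a region in that table was Ptprc, a leukocyte gene listed for macrophages. The region lay 4673 bp from the start of Ptprc and held 27 in the knockout and 10 in floxed cells (ratio 2.7, 1.2 to 7.71). An overlapping Ptprc region in the Rela table held 33 in the Rela knockout and 56 in the wild type. The part of Ptprc in the Kindlin-2 values was not tested.

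The first comparison set Rela knockout against Rela wild-type 3T3 cells. Both cyclooxygenase genes and Cbr2 had lower signal in the knockout, while Pla2g12a and Ltc4s had higher signal. At the 2-fold limit 3 of the 6 regions were lower and 2 were higher, and the Ptgs2 promoter lay inside the limit. Of all 28332 regions with a mean signal of at least 1, the lower call was made for 21.0% and the higher call for 22.4%. Among the 8061 regions centred within 2500 bp of a gene start, as all 6 are, these shares were 13.1% and 13.0%. Since the members were picked from this contrast, nothing is read from their share.

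**Figure D1:**
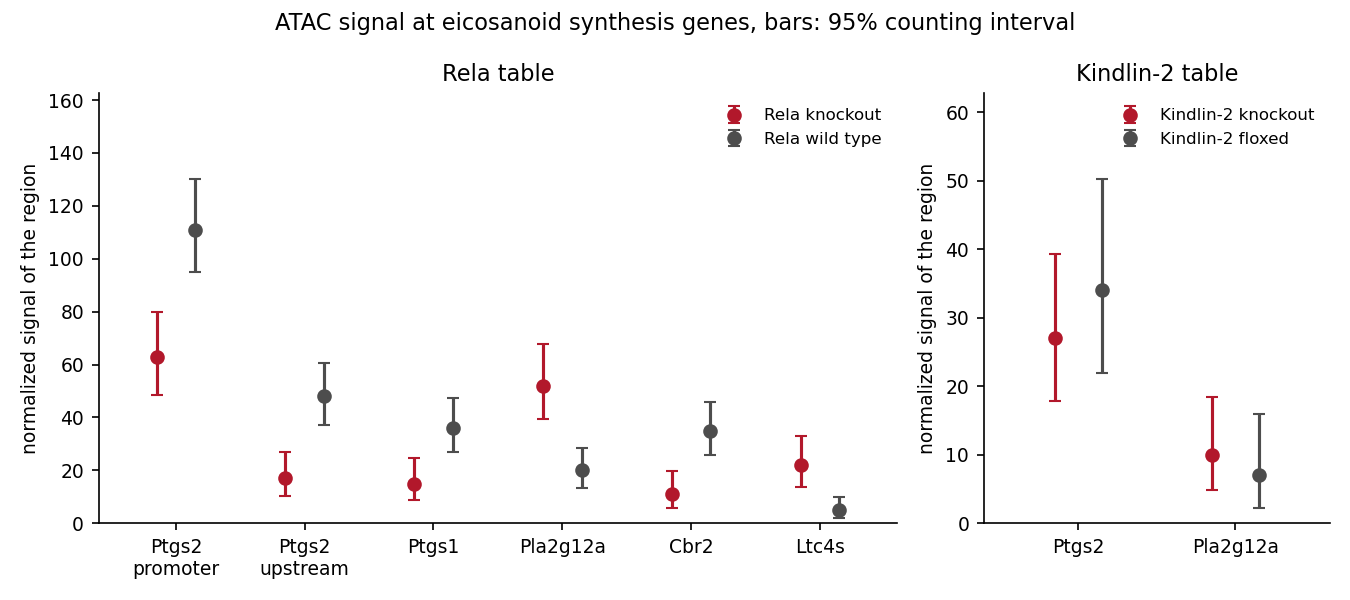
Normalized ATAC signal (vertical axis, from 0) of each region of the 5 genes in knockout cells (red) and their controls (grey), with 1 value per genotype and bars for the exact 95% counting interval. In the Rela table the bars of knockout and wild type do not overlap at any of the 6 regions, whereas in the Kindlin-2 table they overlap at both. The genes were chosen with these differences known and the bars leave out the difference between cultures, so nothing is read from this contrast.

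The cyclooxygenase genes come first. Ptgs2, which encodes the inducible cyclooxygenase 2 (ENSMUSG00000032487), had 2 regions in the Rela table. The promoter region, chr1:150099639-150100334, spans -392 to 303 bp around the start and is 695 bp wide. It held 63 in the Rela knockout and 111 in the wild type, a ratio of 0.568 (0.416 to 0.753) and a log2 ratio of -0.81. This was the strongest of the 6 regions in wild-type cells and stood above 85.3% of all regions in mean signal. The upstream region, chr1:150097783-150098112, spans -2248 to -1919 bp. It held 17 in the knockout and 48 in the wild type, a ratio of 0.354 (0.2 to 0.607) and a log2 ratio of -1.44. Both regions were thus lower in the knockout, the upstream one by 2.82-fold and the promoter by 1.76-fold, and whether these factors differ was not tested. Per 100 bp, the upstream region had a signal of 5.17 in the knockout and 14.6 in the wild type, and the promoter 9.06 and 16.0, so in wild-type cells the density was nearly alike. The upstream region lies inside Ptgs2os, a long noncoding RNA gene on the minus strand in RefSeq (chr1:150074873-150099874) that starts 157 bp from the start of Ptgs2 and runs the other way. ATAC-seq has no strand, so the promoter signal cannot be split between these genes.

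Ptgs1 encodes the constitutive cyclooxygenase 1 (ENSMUSG00000047250). Its region, chr2:36230262-36230651, covers -164 to 225 bp around the start the authors used, 31 bp from the centre. It held 15 in the Rela knockout and 36 in the wild type, a ratio of 0.417 (0.224 to 0.745) and a log2 ratio of -1.21. That is 2.4-fold lower in the knockout, and 16.7% of regions had a lower log2 ratio. In RefSeq, Ptgs1 runs from 36216742 to 36258593, so this start lies inside the RefSeq gene. The mean signal was above that of 34.0% of regions only.

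Cbr2 encodes a mouse carbonyl reductase that the deposited annotation puts in arachidonic acid metabolism (ENSMUSG00000025150). Its region, chr11:120732027-120732371, runs from -257 to 87 bp. It held 11 in the Rela knockout and 35 in the wild type, a ratio of 0.314 (0.159 to 0.622). With a log2 ratio of -1.58, or 3.18-fold lower in the knockout, it was the lowest ratio of the 6 regions, and 11.1% of all regions were lower still. In RefSeq, Cbr2 ends at 120732025 on this minus-strand locus, so the region lies just upstream of the RefSeq start and overlaps the gene only under the authors' annotation.

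Pla2g12a encodes a secreted phospholipase A2 of group XIIA (ENSMUSG00000027999). Its region, chr3:129878658-129878994, lies wholly inside the gene, 52 to 388 bp after the start. It held 52 in the Rela knockout and 20 in the wild type, a ratio of 2.6 (1.65 to 4.29) and a log2 ratio of 1.34. The knockout value was the second highest of the 6 regions in that genotype, after the Ptgs2 promoter, and per 100 bp it was the highest, at 15.5 against 5.95 in the wild type. Regions of chromosome 3 were shifted upward as a whole, with a median log2 ratio of 0.53 over 1793 regions. With that median taken off, Pla2g12a was within 2-fold (log2 ratio 0.80). The part of this shift in the difference was not tested.

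Ltc4s encodes leukotriene C4 synthase (ENSMUSG00000020377). Its region, chr11:50236624-50236991, does not cover the gene start and lies 1625 to 1992 bp after the start of a gene of 2147 bp on the minus strand, near the far end of the gene. It held 22 in the Rela knockout and 5 in the wild type, a ratio of 4.40 (1.90 to 12.6) and a log2 ratio of 1.94. This was the highest ratio of the 6, with 88.4% of all regions below it, but the region was weak, with a mean signal above that of 11.7% of regions. The wild-type value rests on about 7 implied counts. No region was assigned to the start of Ltc4s itself.

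**Figure D2:**
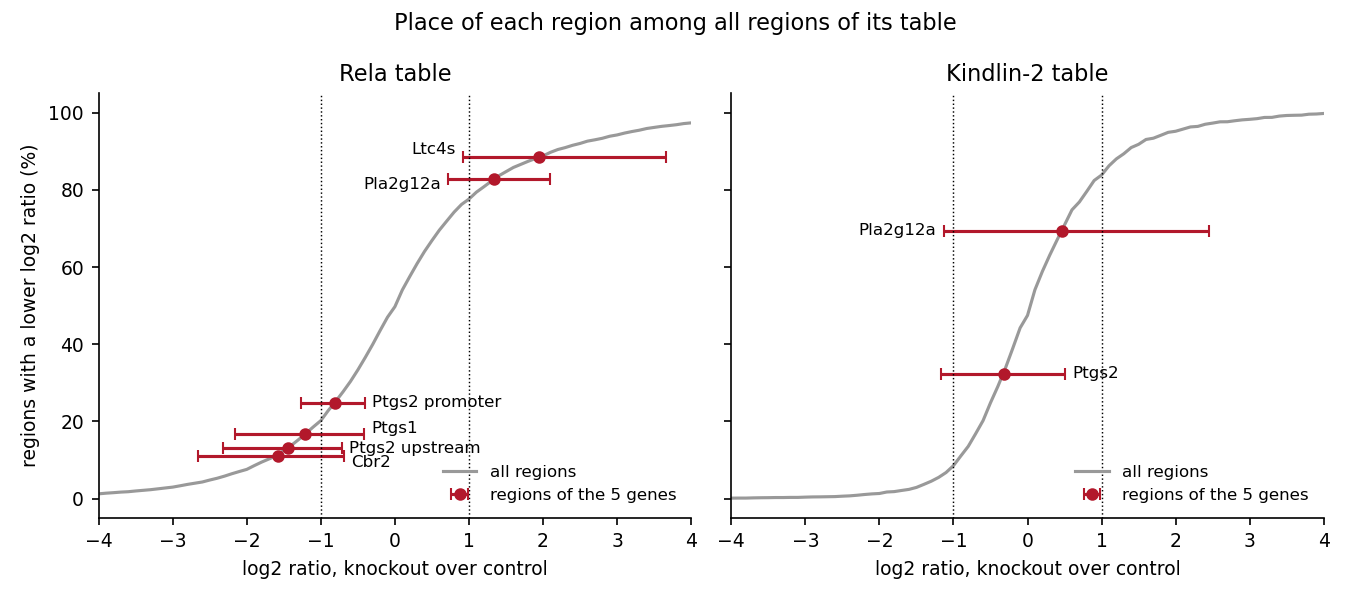
Log2 ratio of knockout over control (horizontal axis) of each region of the 5 genes against the share of all regions with a lower log2 ratio (vertical axis, %), with horizontal bars for the 95% counting interval and the curve of all regions in grey; dotted lines mark 2-fold. In the Rela table the lower members sit between 11.1% and 24.9% and the higher ones at 82.8% and 88.4%, while both Kindlin-2 members sit between the dotted lines.

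Ordered by level per 100 bp in the wild type, the Ptgs2 promoter (16.0) and upstream region (14.6) came first, followed by Cbr2 (10.2), Ptgs1 (9.25), Pla2g12a (5.95) and Ltc4s (1.36). In the Rela knockout the order was Pla2g12a (15.5), Ptgs2 promoter (9.06), Ltc4s (5.99), Ptgs2 upstream (5.17), Ptgs1 (3.86) and Cbr2 (3.2). Pla2g12a thus stood first in the knockout and next to last in the wild type. Counting intervals of the whole-region signal of the low knockout values were wide, 5.88 to 19.9 at Cbr2 and 8.68 to 24.7 at Ptgs1, so the order of neighbours among them is not resolved.

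The surroundings of the genes differed. Around Ptgs2, the 8 other regions within 100 kb of its start all had a log2 ratio below 0 in the Rela knockout, and 4 of them were at least 2-fold lower. Their median was -1.0, against -0.05 for chromosome 1. A region at -72.6 kb held 25 in the knockout and 91 in the wild type, one at -35.0 kb held 12 and 48, and one at -52.4 kb was listed at 0 in the knockout and held 20 in the wild type. On the other side the signals were 57 in the knockout and 79 in the wild type at 15.6 kb, and 45 and 85 at 51.6 kb. All 4 regions past 2-fold thus lay upstream, and the 4 regions beyond the gene ran between -0.90 and -0.46. Extended outward, an unbroken run of 17 regions below 0 reached over 501 kb, from chr1:149960671 to 150461194, with 8 of them at least 2-fold lower and a median of -0.90. The run was delimited after its values were seen. Its first region is the promoter of Pla2g4a, whose start is 139 kb from that of Ptgs2 and which encodes the cytosolic phospholipase A2 that supplies arachidonic acid. That promoter held 36 in the Rela knockout and 66 in the wild type, a ratio of 0.545 (0.364 to 0.800). With the median of the 20 nearest regions on either side taken off, the Ptgs2 upstream region had a log2 ratio of -0.91 and the promoter one of -0.34, both within 2-fold.

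Runs in the member's own direction were shorter at the other loci, with 5 regions at Pla2g12a (123 kb), 4 at Ltc4s (81.2 kb), 2 at Ptgs1 (13.4 kb) and Cbr2 alone, and in each the member was the single region past 2-fold. Around Ptgs1, 1 of 6 other regions within 100 kb was below 0, with a median of 0.35, and the flanking regions held 18 in the knockout and 16 in the wild type on one side and 47 and 53 on the other. Around Cbr2, 2 of 7 were below 0, with a median of 0.40. The nearest of them, the promoter of Dcxr, another reductase gene, held 24 in the knockout and 18 in the wild type at a gap of 4.51 kb. Ptgs1 and Cbr2 thus had lower ratios than most of their surroundings, and after the neighbours' median was taken off their log2 ratios were -1.27 and -1.63. Both genes were chosen with their lower signal known, so nothing more is read from this contrast with their neighbours. Around Ltc4s, 2 of 7 other regions were below 0, with a median of 0.41, and none was at least 2-fold higher. Around Pla2g12a, 1 of 6 was below 0, with a median of 0.46, and none was at least 2-fold higher. The apoptotic caspase gene Casp6, next on that side, had a region of 276 in the knockout and 198 in the wild type.

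**Figure D3:**
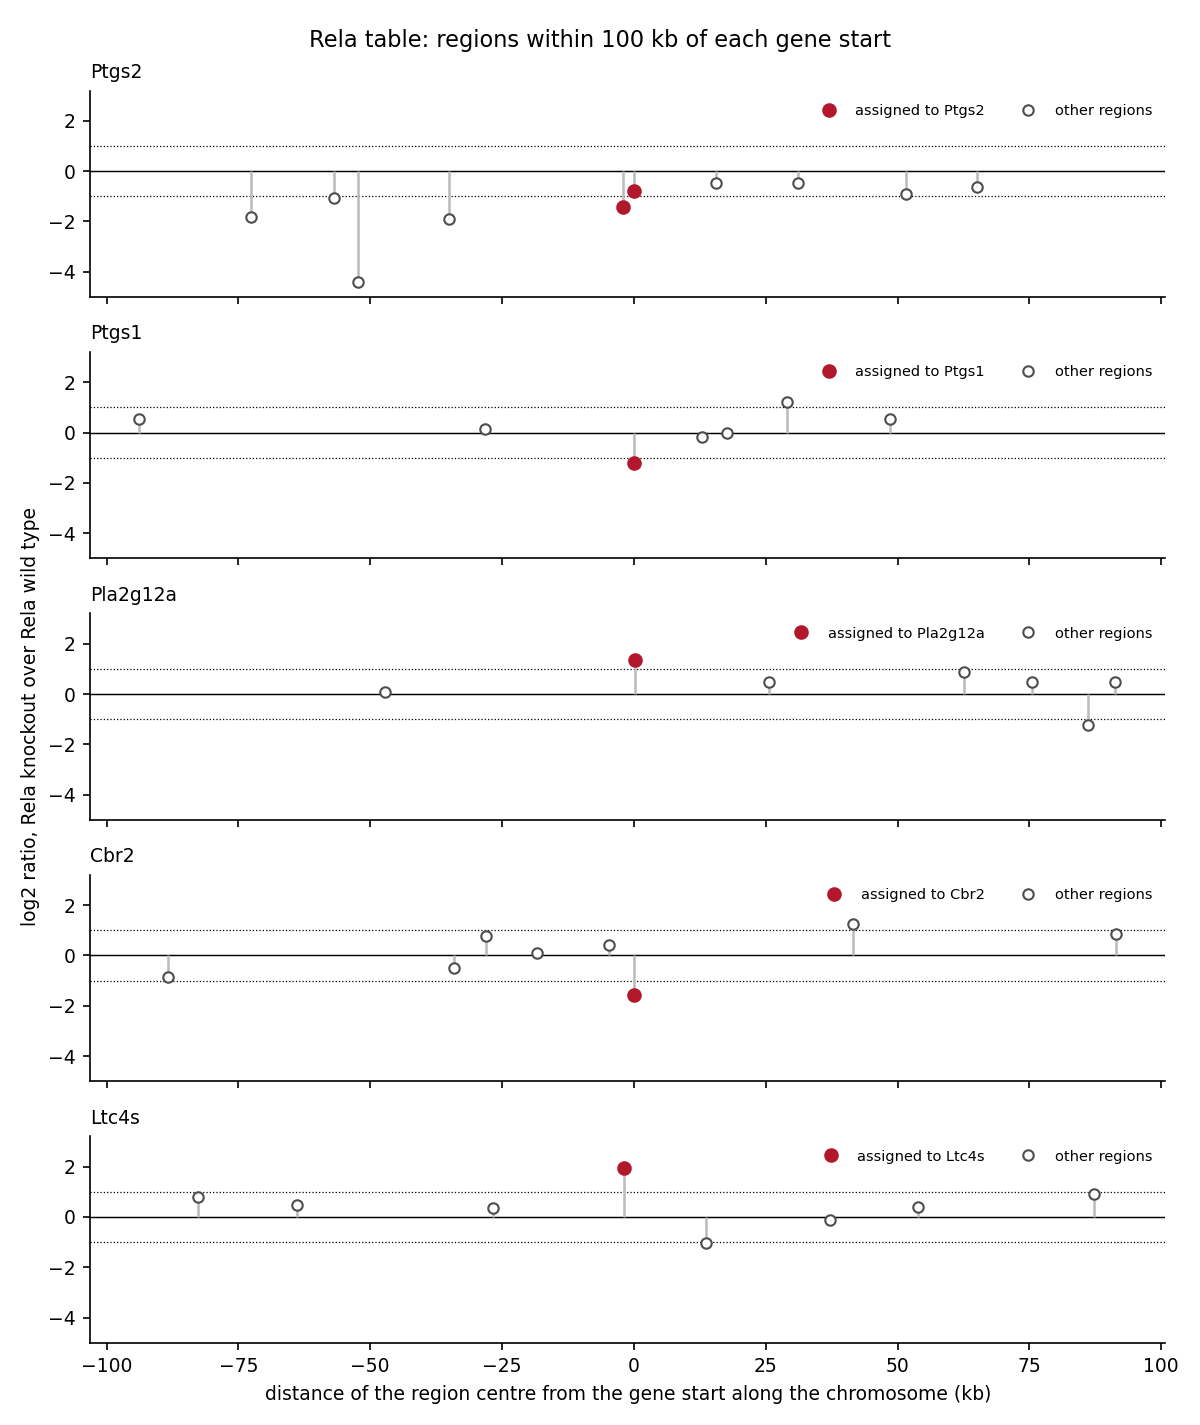
Log2 ratio of Rela knockout over Rela wild type (vertical axis) of every region within 100 kb of the start of each gene, by distance along the chromosome in kb (horizontal axis), with regions of the named gene in red, other regions as open circles and dotted lines at 2-fold. All 10 regions around Ptgs2 lie below 0, while the Ptgs1 and Cbr2 regions point down among neighbours that lie mostly above 0.

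The other genes of the pathway were taken from a list of 79 genes, of which 22 had 26 regions in the Rela table. In the Rela knockout 8 of these passed the 2-fold limit upward and 5 downward, beside the 22.4% and 21.0% of all regions given above, with a median log2 ratio of -0.28, against 0.00 over all regions. Without the 5 genes, 17 genes had 20 regions, 6 of them higher and 2 lower, with a median of 0.02. Of these, the 15 near a gene start held 4 higher and 1 lower, with a median of -0.22. Over all 8061 regions near a gene start the shares were 13.0% higher and 13.1% lower, with a median of -0.03. No common direction is read from so few regions.

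Of the phospholipases A2, 5 of 20 genes had a region. Besides Pla2g12a, the promoter of the lysosomal Pla2g15 was higher (58 in the knockout and 16 in the wild type, ratio 3.62, 2.25 to 6.24). Pla2g16 had a region at a distance of 3932 bp that held 18 in the knockout and 6 in the wild type, and its promoter 33 and 23. Pla2g6, a calcium-independent enzyme, held 46 in the knockout and 38 in the wild type. With Pla2g4a at 36 and 66, none of these genes was at least 2-fold lower.

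Among prostanoid synthases and reductases, 5 of 14 genes had a region. Akr1b8, an aldo-keto reductase, was lower like Cbr2 (15 in the knockout and 40 in the wild type, ratio 0.375, 0.202 to 0.663), but within 2-fold against its neighbouring regions. Akr1c18 was higher (28 and 8, ratio 3.50, 1.73 to 7.45). Akr1b3 held 47 in the knockout and 55 in the wild type, and Ptges3, a prostaglandin E synthase that is also an Hsp90 cochaperone, 43 and 35. The terminal enzymes of this step thus moved in no common direction.

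In leukotriene synthesis, 4 of 10 genes had a region. Dpep1, a dipeptidase that cleaves leukotriene D4, had a region 1889 bp from its start with 45 in the knockout and 1 in the wild type, a ratio of 45.0 with a very wide interval (11.2 to 2630). Alox5ap, which presents arachidonic acid to 5-lipoxygenase, held 45 in the knockout and 64 in the wild type, 2966 bp from its start. Mgst3, a microsomal glutathione transferase related to Ltc4s, held 252 and 343. The higher signal at Ltc4s was therefore shared by Dpep1 and not by these genes.

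Of genes for breakdown and transport, 4 of 8 had a region. Ptgr2, a prostaglandin reductase, was higher at its promoter (42 in the knockout and 5 in the wild type, ratio 8.40, 3.90 to 23.0). The prostaglandin transporter gene Slco2a1 had a lower region at a distance of 4395 bp (12 in the knockout and 26 in the wild type, ratio 0.462, 0.232 to 0.912) and came within 2-fold under 3 other settings. The export pump genes Abcc1 (30 in the knockout and 38 in the wild type) and Abcc4 (60 and 81 at the promoter, 199 and 139 at 3780 bp) were within 2-fold. Of 15 receptor genes only Ptger4, which encodes the prostaglandin E2 receptor EP4, had a region, with 99 in the knockout and 172 in the wild type. The epoxygenase gene Cyp2j6 held 61 and 97 at its promoter, and 34 and 7 at a region 2636 bp away that was 4.86-fold higher (2.43 to 11.3).

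**Figure D4:**
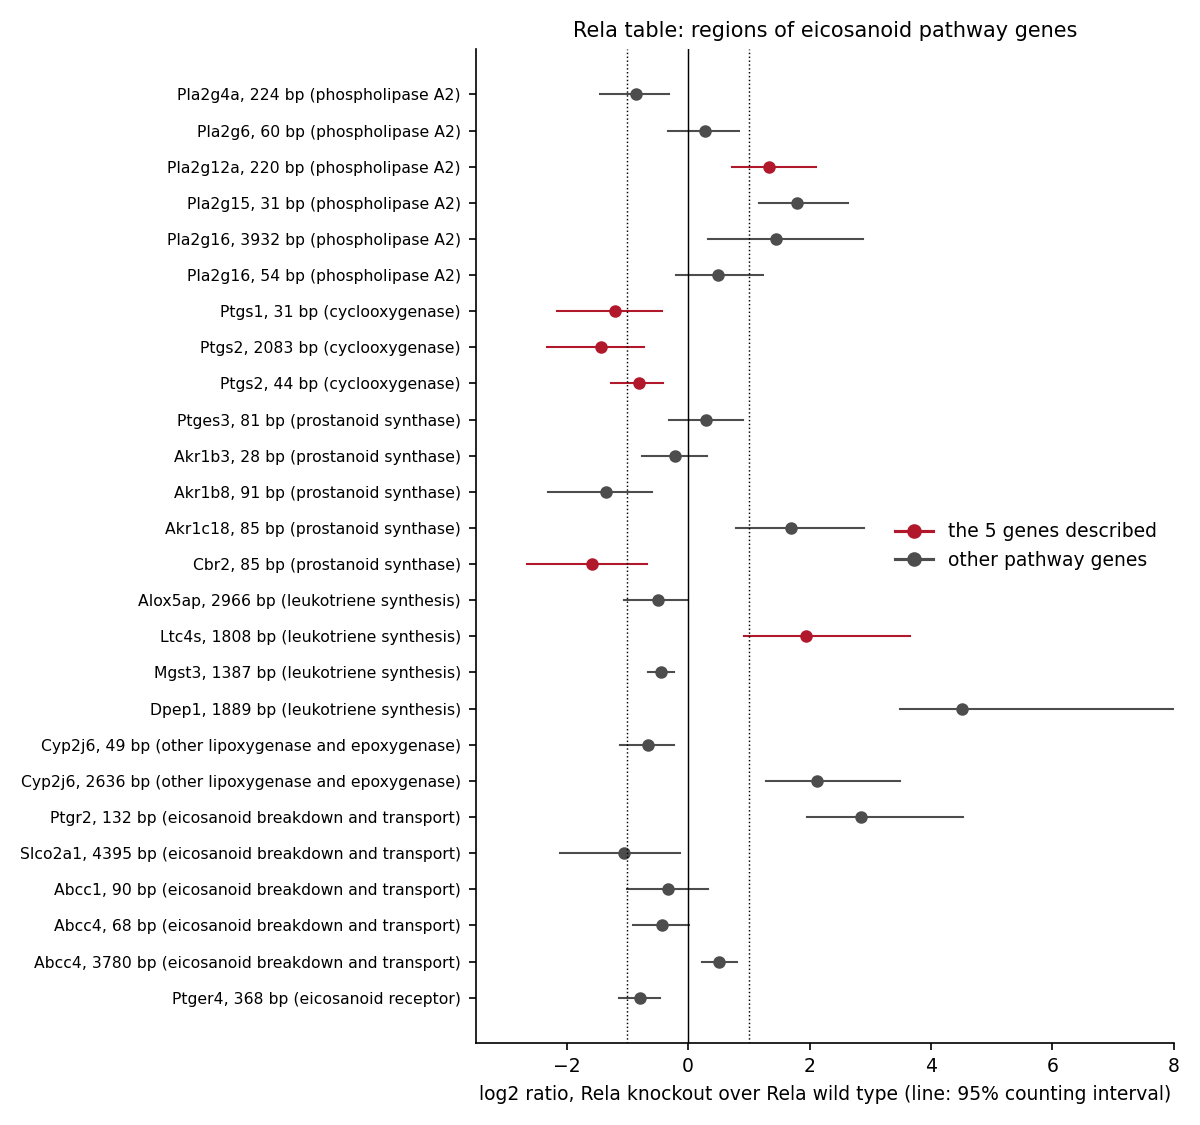
Log2 ratio of Rela knockout over Rela wild type (horizontal axis) of all 26 regions of listed pathway genes, ordered by role, with the distance to the gene start in bp; red marks the 5 genes described, lines the 95% counting interval of the ratio (the line of Dpep1 runs past the axis) and dotted lines 2-fold. The 3 cyclooxygenase regions all lie below 0, and the other roles hold points on both sides of it or too few regions to compare. Both cyclooxygenase genes are among the 5 chosen with these differences known, so nothing is read from their common direction.

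Markers of other cells were measured beside these values. Of 7 mast cell markers, a cell type known for leukotriene C4, 1 had a region, Ms4a2, 5031 bp from its start, with 22 in the knockout and 5 in the wild type, the same values as Ltc4s, while Kit, Cpa3 and the other 4 had none. Of 8 macrophage markers, 3 had 4 regions in the Rela table, with a summed signal of 73 in the knockout and 90 in the wild type. The lower sum was mostly due to Ptprc (33 in the knockout and 56 in the wild type), and Cd68 held 12 and 14. Csf1r held 17 and 15 at its promoter. A second Csf1r region, with 11 and 5, was called 2-fold higher but came within 2-fold under 5 other settings. Kidney epithelial markers summed to 52 in the knockout and 121 in the wild type over 3 regions of 8 genes. That lower sum came from Pax8 (26 in the knockout and 111 in the wild type), while Krt19 (19 and 8) and Cdh16 (7 and 2) were past 2-fold upward. The ratio interval of Cdh16 spanned 1 (0.74 to 19.4). Cdh16 came within 2-fold under 4 other settings and Krt19 under 2. The 1 endothelial region held 57 in the knockout and 84 in the wild type. Fibroblast markers summed to 545 in the knockout and 523 in the wild type over 11 regions, but single markers went both ways. S100a4 (133 in the knockout and 46 in the wild type) and Fbln1 (29 and 12) were past 2-fold upward. Col5a1 (20 in the knockout and 53 in the wild type), Dpt (8 and 23) and a region of Col1a2 (18 and 40) were past it downward. Only Fbln1 kept its call under all other settings. S100a4, Col5a1, Dpt and the Col1a2 region came within 2-fold after centring on neighbouring regions. The part of these markers in the differences above was not tested.

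By both signal values, the promoters most like a member among 6832 (for Ptgs2, 6831) promoter regions of other genes lay very close to it, over 2 genotypes only. Man1a had the same values as Cbr2 (11 in the knockout and 35 in the wild type), and Kalrn the same as Ltc4s (22 and 5). D10Wsu102e was nearest to Ptgs1 with 15 and 35, Pdia6 nearest to Pla2g12a with 50 and 20, and Ccdc88c nearest to the Ptgs2 upstream region with 18 and 48. Among so many promoters a near copy says little about how rare a pair of values is. For Ltc4s, 3 promoters lay within a log2 distance of 0.23.

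The second comparison set Kindlin-2 knockout against Kindlin-2 floxed kidney fibroblasts, an integrin-binding adaptor protein. Ptgs2 and Pla2g12a had 1 region each, and both were within 2-fold. The higher call was made for 16.2% and the lower call for 9.27% of all 5727 regions. Among the 2671 regions near a gene start, as both members are, these shares were 9.06% and 10.6%, or 19.6% together. The Ptgs2 region, chr1:150099888-150100249, spans -143 to 218 bp. It held 27 in the knockout and 34 in floxed cells, a ratio of 0.794 (0.443 to 1.43) and a log2 ratio of -0.32. The interval reaches from 2.26-fold lower to 1.43-fold higher, so a 2-fold lower signal lies inside it and no difference was detectable at this depth. It was a strong region for this table, above 83.4% of regions in mean signal.

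The Pla2g12a region, chr3:129878659-129878868, lies 53 to 262 bp after the start, inside the interval of the Rela table's region. It held 10 in the knockout and 7 in floxed cells, a ratio of 1.43 (0.458 to 5.48) and a log2 ratio of 0.46. With about 10 and 5 implied counts, no difference was detectable there. Quantile scaling set its log2 ratio at 0.00 and loess scaling at -0.08, so its direction was not stable.

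Around Ptgs2 the Kindlin-2 table showed no common lowering: 1 of 5 other regions within 100 kb was below 0 and 2 were at least 2-fold higher. Over the 501 kb of the Rela run, 3 of 7 regions were below 0, with a median of 0.29. One region found in both tables, at -56.8 kb from the Ptgs2 start, held 40 in the Kindlin-2 knockout and 12 in floxed cells, and 75 in the Rela knockout and 161 in Rela wild-type cells. The 2 tables were normalized separately, so only the ratios within each are set side by side, and their difference was not tested.

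The Kindlin-2 table held regions of 4 of the 79 pathway genes, with 1 region past 2-fold upward and 0 past it downward. All 4 regions lay near a gene start, where the shares over all regions were 9.06% higher and 10.6% lower. Ptges, which encodes the inducible prostaglandin E synthase that works with cyclooxygenase 2, held 12 in the knockout and 3 in floxed cells, 758 bp from its start and inside the gene. Its ratio of 4.0 had an interval that reached just below 1 (0.981 to 40.6), and the log2 ratio of 1.70 became 0.70 after loess scaling. Ptges3 held 23 in the knockout and 39 in floxed cells, a ratio of 0.590 (0.322 to 1.04). By both values the promoter most like Ptgs2 here was that of Rnf6, with the same 27 and 34 among 2408 promoter regions, and 5 promoters had the same values as Pla2g12a.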

How the data were processed

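ATAC-seq libraries of 4 genotypes were analysed from 2 deposited tables of regions, 1 for Rela and 1 for Kindlin-2, on mm10 coordinates. Region starts are printed as deposited; whether they count from 0 is not given in the sources used here. Each value is a score: per the labels and file headers, the authors' signal was background-corrected, normalized with DESeq within its table and rounded. The submitters' processing notes name, with no role, STAR 2.4.2a, Trimmomatic 0.33 and FastQC, besides MACS2, Picard 1.136, bedtools, deepTools and DESeq2; how 2 replicates became 1 column is not given in the sources used here. Per the file headers, the fraction of each region inside a gene and the distance to its start are the authors' deposited annotation.

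Log2 ratios used a pseudocount of 1, regions with a mean signal of at least 1 and a limit of 2-fold, in Python 3.11.15 with SciPy 1.17.1. Values are not counts, so no count test was run, and with 1 column per genotype there is no test. Counting intervals are exact (Clopper-Pearson, 95%) on counts implied by the spacing of values: dividing by 0.949 in the Rela knockout, 0.683 in the wild type and 1.361 in floxed cells. In the Kindlin-2 knockout no factor could be fitted and 1 was used, so its intervals are less sure. They cover counting error only. The interval method was tested only on simulated Poisson counts with the Rela factors. That simulation had no background correction, no merging of replicates and no Kindlin-2 column, so it does not cover error from these. Named genes were all regions of the 5 genes, listed pathway regions past 2-fold, the flanking and 100 kb regions, and the promoters nearest in log2 values, of which the one nearest to the Ptgs2 promoter is not reported here. Other named pathway regions, the single markers named and the runs around the genes were picked after their values were seen. The 5 genes and all lists were chosen with earlier results of these data known. Alternatives were another pseudocount, filter, scaling or centring.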

Additional observations from a re-analysis of the deposited data

How the results depend on the processing

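Ptgs1 (log2 ratio -1.27 to -1.04), Cbr2 (-1.78 to -1.32) and Ltc4s (1.43 to 2.11) stayed past 2-fold in the Rela table under all 9 alternatives. Centring on neighbouring regions set the Ptgs2 promoter at -0.34, the Ptgs2 upstream region at -0.91 and Pla2g12a at 0.69, and left 3 pathway regions lower in place of 5. Chromosome centring set Pla2g12a at 0.80. In the Kindlin-2 table, Ptgs2 ran from -0.69 to -0.05 over 9 alternatives and Pla2g12a from -0.08 to 0.49 over 8, as it drops out at a mean signal of at least 10. Kindlin-2 regions at least 2-fold higher numbered 925, against 543 with a pseudocount of 5, 387 with a mean of at least 10, 573 after quantile and 450 after loess scaling, and regions at least 2-fold lower 531, against 335 with a pseudocount of 5. The higher regions' share of those past 2-fold was 63.5%, against 44.1% with that filter, 48.7% after quantile and 47.1% after loess scaling. The 1 higher Kindlin-2 pathway region, at Ptges, became 0 with that filter and after loess scaling. It was also 0 with the genes that the Rela table annotates to arachidonic acid metabolism. Ptges had no region in the Rela table and could not enter that list, so this last change was fixed in advance. That gene list, added after the data were seen, gave 4 higher and 3 lower Rela regions in place of 8 and 5, since it holds fewer genes. The cause of the other changes was not tested. No paired analysis was possible because each genotype had 1 column, and no replicate could be left out for the same reason. Depth limits Ltc4s and the Kindlin-2 Pla2g12a region most, with about 7 and 5 implied counts in the control.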
